A study of Mus musculus with 19 samples.

Results

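The genes described here fold, glycosylate and dispose of proteins in the endoplasmic reticulum (ER) or carry the unfolded protein response, and they were followed through a reproductive cycle in mouse liver. The 39 members are a list of gene symbols, and all 39 were found, once each, among the 51826 gene entries measured. They comprise 16 chaperones and folding enzymes, 7 factors of ER-associated degradation, 4 genes of protein translocation and export, 8 sensors and transcription factors, and 4 targets of the transcription factor ATF4. The measurements are of oligo(dT)-selected RNA from frozen liver of 19 female mice labelled Balbc and aged 12 weeks: 7 nulliparous mice, which had not carried a pregnancy, 6 mice at day 10 of lactation and 6 mice at day 6 of involution, counted from weaning. No treatment or transgene is labelled in any group. The methods name 2 suppliers of Balb/c mice and the labels give none for a mouse. Values are TPM, the transcripts of a gene as a share of all transcripts of that mouse on a scale of 1000000 for the total with gene length taken into account, so levels may be compared between genes but are shares of the total.

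Secreted and membrane proteins enter the ER through the SEC61 channel, are folded by chaperones such as BiP (encoded by Hspa5) and by disulfide isomerases, and are either exported in vesicles or sent back to the cytosol for degradation. When unfolded proteins accumulate, the membrane sensors ATF6, IRE1 (Ern1) and PERK (Eif2ak3) start the unfolded protein response: cleaved ATF6 and spliced XBP1 raise chaperones and degradation factors, and PERK slows translation and raises ATF4 and its targets. Hepatocytes carry a heavy load of this kind because they secrete albumin and most other plasma proteins, and they also use CREB-H (Creb3l3), a relative of ATF6 that acts on genes of lipid and iron handling.

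The mice fell apart by the number in their sample titles, so results are also given within each range of numbers. Numbers under 200 belong to 3 nulliparous mice (NUL_1, NUL_4 and NUL_13) and 3 lactating mice (LAC_36, LAC_102 and LAC_133), and numbers of 200 and above to 4 nulliparous mice (NUL_220, NUL_221, NUL_226 and NUL_227), 3 lactating mice (LAC_200, LAC_213 and LAC_240) and all 6 involution mice. Where values are given mouse by mouse, they follow this order. On the first principal component of all genes tested, which held 34.5% of the variance, the 6 lower-numbered mice scored 30.4 to 39.7 and the 13 others -28.6 to -4.06. The summed level of the 39 members was 3041 to 3984 TPM in the 6 lower-numbered mice and 4431 to 6718 TPM in the 13 others, or 0.304% to 0.398% against 0.443% to 0.672% of all TPM, without overlap. The labels name no batch, and what the numbers stand for is not given. Albumin, the defining transcript of hepatocytes, stood at 42481 to 127179 TPM, so the labelled tissue was present in every mouse. Among the 171 pairs of mice, 0 held identical values.

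All 39 members passed the filter of a mean of 0.1 TPM, and 33 of them had a mean of at least 10 TPM over the 19 mice. Their means ran from 1.73 TPM for Chac1, an enzyme that breaks down glutathione, to 689 TPM for Hspa5, with a median of 65.9 TPM. Among the 13 members at 100 TPM or more were Hspa5, Calr (450 TPM) and P4hb (448 TPM), Hsp90b1 (416 TPM) and Manf (406 TPM). They are the main luminal chaperone, a lectin chaperone, the core disulfide isomerase, the ER form of HSP90 and a small protein that binds BiP. Of the sensors, Eif2ak3 (7.91 TPM), Atf6 (12.9 TPM) and Ern1 (15.9 TPM) were low, whereas Creb3l3 (178 TPM) and Xbp1 (107 TPM) were abundant.

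**Figure D1:**
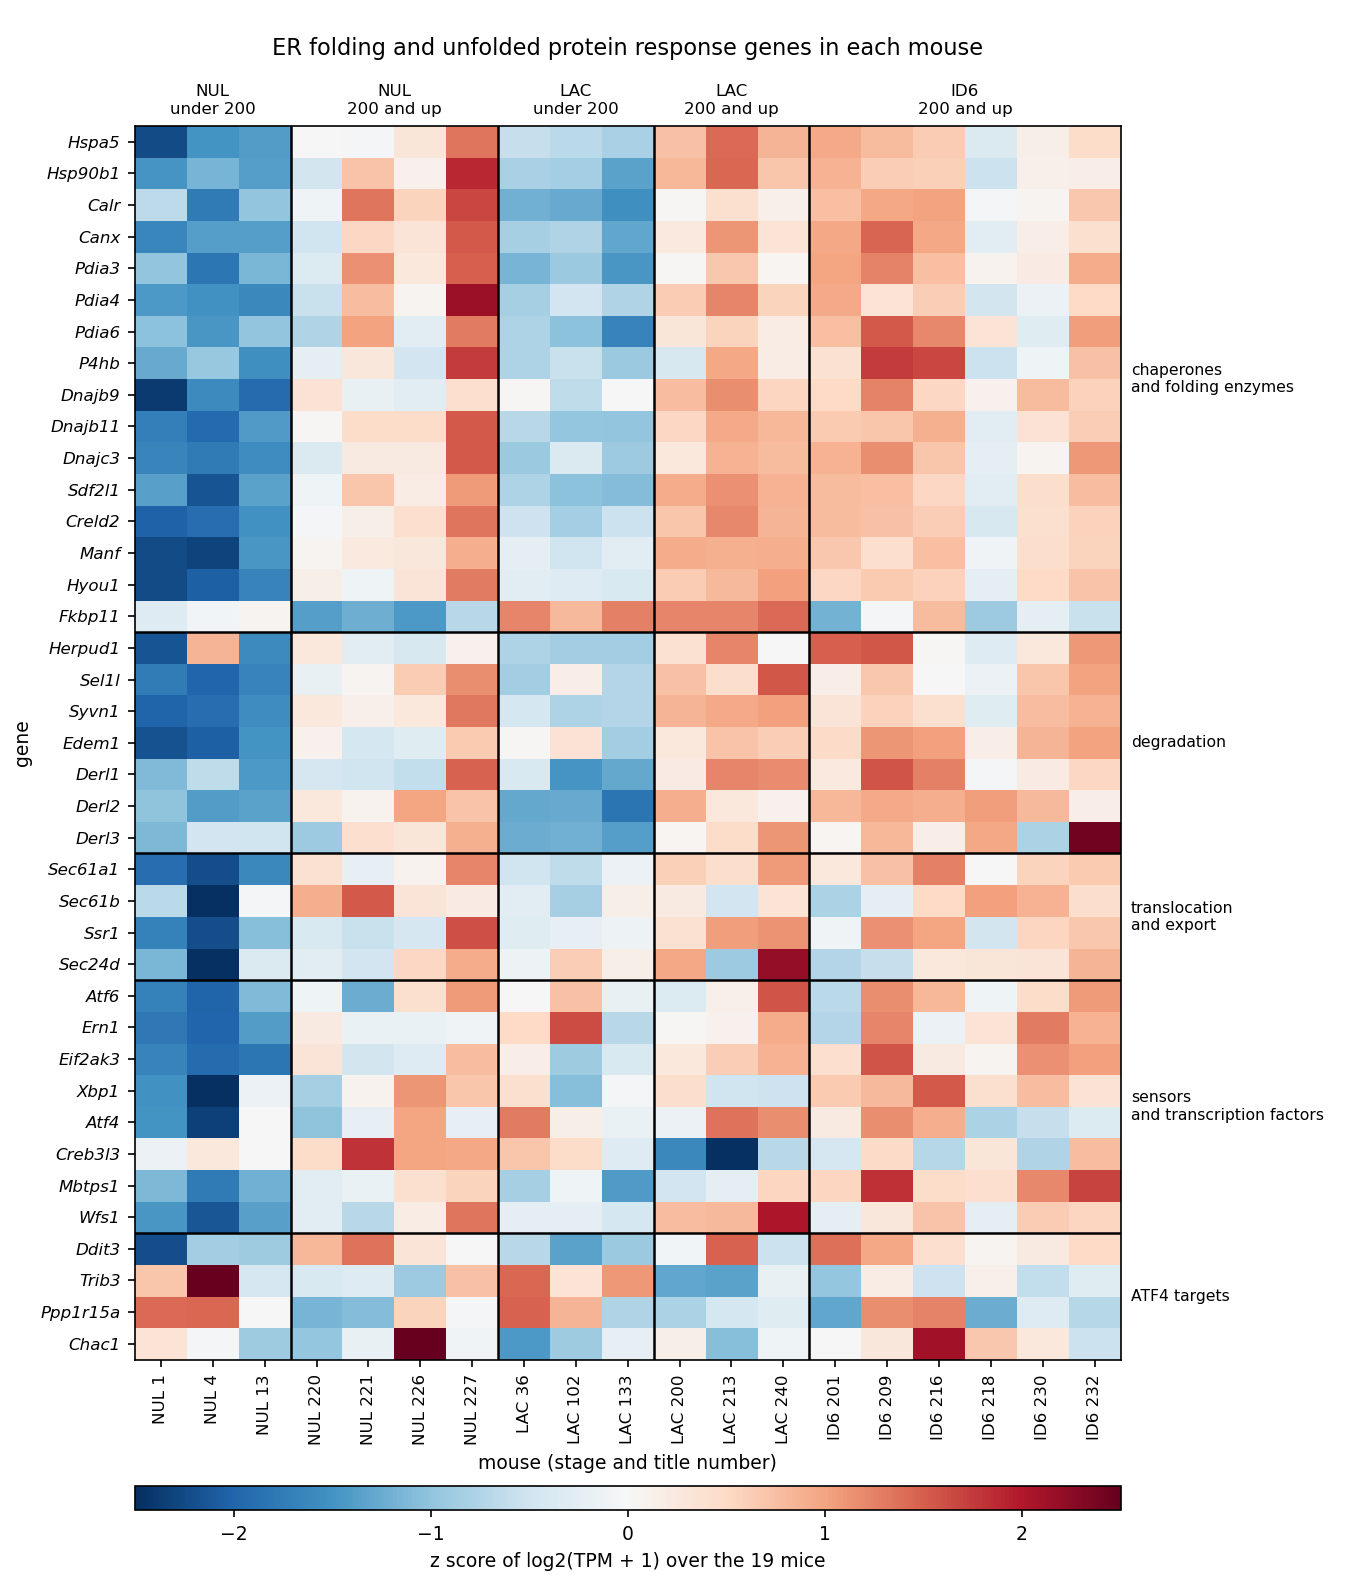
Level of each of the 39 members (rows, by branch) in each of the 19 mice (columns, by stage and by title number), as the z score of log2(TPM + 1), the distance from the gene's mean over the 19 mice in standard deviations. The 3 lower-numbered nulliparous mice are at the low end for most chaperones and degradation factors, the 3 lower-numbered lactating mice are next, and Fkbp11 departs from this order.

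The comparison of lactation with the nulliparous state asks how liver expression differs at the stage of milk production. A single member, Fkbp11, changed. It encodes a peptidyl-prolyl isomerase of the secretory pathway. In nulliparous mice it stood at 9.66 to 18.56 TPM (median 13.46) and in lactating mice at 25.47 to 32.87 TPM (median 30.34). Every lactating mouse was above every nulliparous mouse. The means were 30.0 ± 2.44 TPM (SD, n = 6) and 13.7 ± 3.72 TPM (SD, n = 7), a ratio of 2.20, and the log2 change was 1.12 (SE 0.17, limma-trend with Benjamini-Hochberg adjustment, adjusted p = 0.000455). It passed with each mouse left out in turn, at 1.05 to 1.19. Over all genes tested, 9.21% passed an adjusted p of 0.05 in this comparison and 0.746% also had a log2 change of at least 1 in size, and 1 of 39 members passed either rule.

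Fkbp11 rose within each range of title number. In the lower range the nulliparous mice had 15.8, 17.6 and 18.56 TPM and the lactating mice 30.19, 25.47 and 30.85 TPM. In the upper range the nulliparous mice had 9.94, 10.63, 9.66 and 13.46 TPM and the lactating mice 30.36, 30.31 and 32.87 TPM. The groups did not overlap in either range. The log2 change was 0.70 (SE 0.10, adjusted p = 0.0326) in the lower and 1.44 (SE 0.22, adjusted p = 0.00226) in the upper range, and the test of the difference between these changes gave an adjusted p of 0.121 (0.0382 without NUL_227).

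Without a term for the title number, the other 38 members did not pass in lactation, although 28 of 39 had a positive change (median log2 change 0.16, against -0.032 over all genes tested). Hspa5 had 572 ± 320 TPM (SD, n = 7) in nulliparous and 731 ± 314 TPM (SD, n = 6) in lactating mice, a log2 change of 0.43 (SE 0.33, adjusted p = 0.463). Its nulliparous values ran from 227.61 to 1159.08 TPM, a range that held all but the highest lactating value, 1195.69 TPM. Among degradation factors the smallest adjusted p values belonged to Edem1, which marks misfolded glycoproteins (log2 change 0.36, SE 0.15, adjusted p = 0.138), and Sel1l, the adaptor of the HRD1 ubiquitin ligase (0.34, SE 0.23, adjusted p = 0.4). Among translocation genes they belonged to Ssr1, a subunit of the complex beside the SEC61 channel (0.23, SE 0.11, adjusted p = 0.233), and Sec24d, a coat protein of export vesicles (0.40, SE 0.21, adjusted p = 0.268). Creb3l3 had a log2 change of -0.30 (SE 0.11, adjusted p = 0.0975) and Ern1 of 0.38 (SE 0.14, adjusted p = 0.111). The ATF4 targets Chac1 and Trib3 had log2 changes of -0.45 (SE 0.31, adjusted p = 0.423) and -0.13 (SE 0.23, adjusted p = 0.8). Before adjustment, 7 of 39 members had p under 0.05, against 23.1% of all genes tested. The count that passed was 4 without NUL_227 (Fkbp11, Edem1, Ssr1 and Wfs1), 2 without LAC_36 (Fkbp11 and Creb3l3), 4 with median-ratio scaling (Fkbp11, Edem1, Ern1 and Atf4) and 2 with quantile normalization (Fkbp11 and Ern1).

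**Figure D2:**
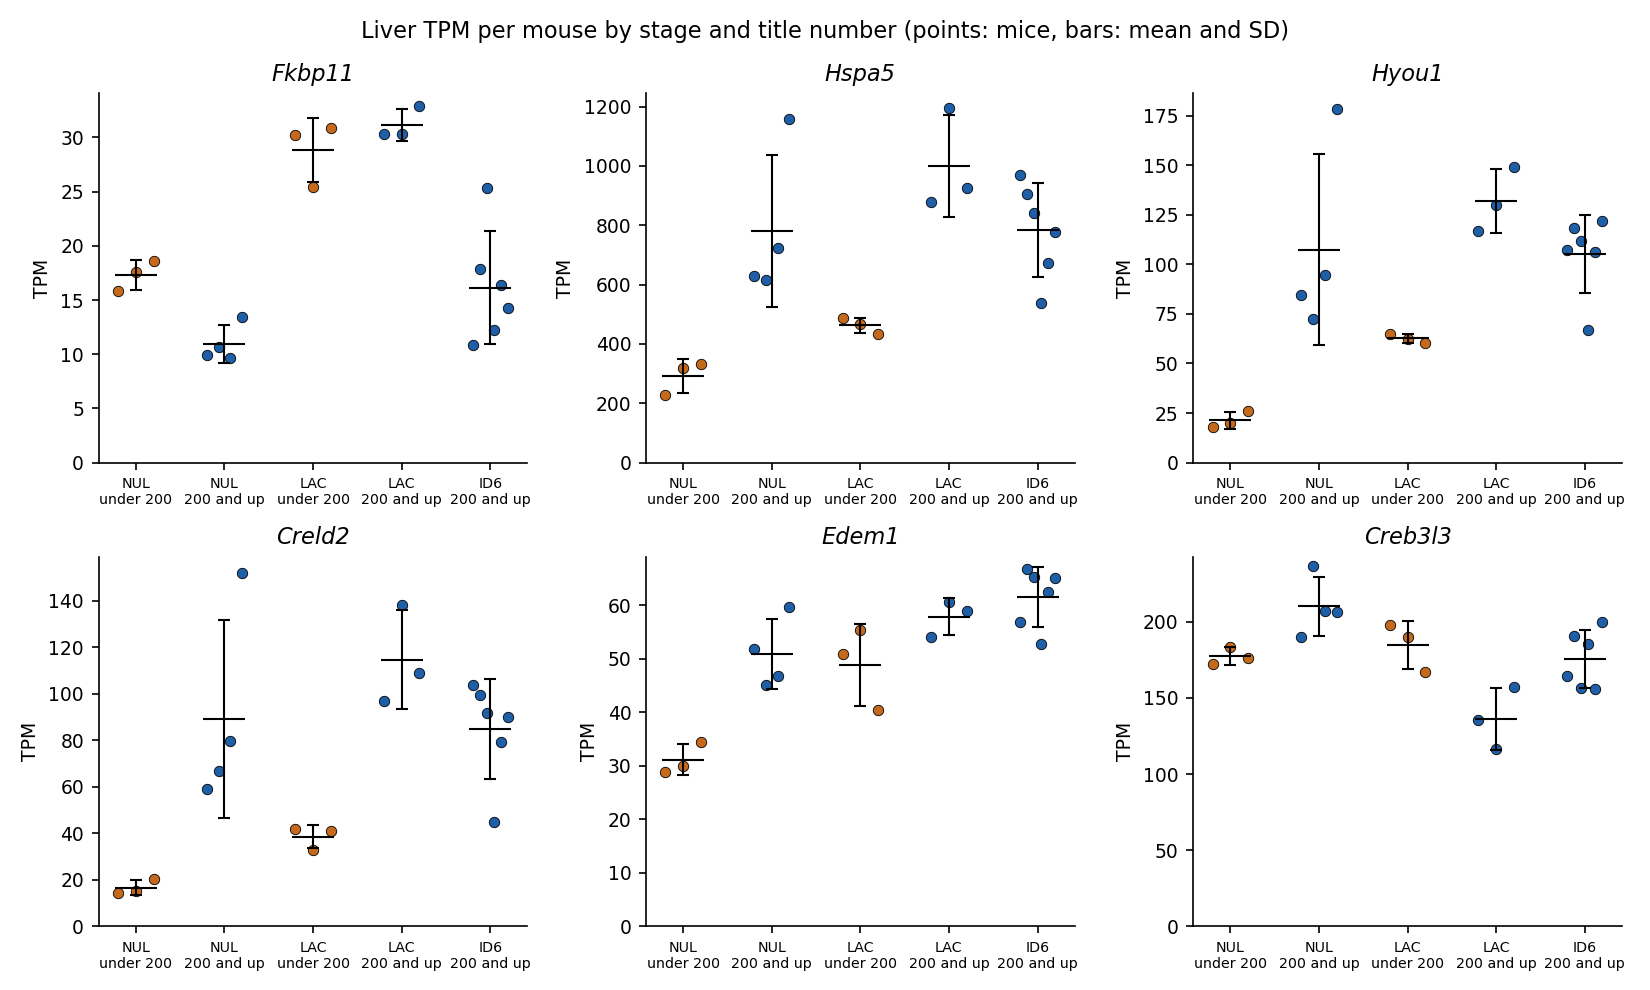
TPM of 6 members in each mouse (points, by stage and by range of title number), with the mean and SD of each set. Fkbp11 separates lactating from nulliparous mice in both ranges, Hspa5, Hyou1, Creld2 and Edem1 are lowest in the lower-numbered nulliparous mice, and Creb3l3 is lowest in the upper-numbered lactating mice.

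With the range of title number as a term in the fit, 13 of 39 members were higher in lactation, against 5.5% of all genes tested. They were 6 chaperones (Hspa5, Dnajb9, Creld2, Manf, Hyou1 and Fkbp11), 3 degradation factors (Sel1l, Syvn1 and Edem1), the SEC61 channel subunit Sec61a1, and 3 genes of the sensor group (Ern1, Eif2ak3 and Wfs1). After Fkbp11, the larger changes were those of Hyou1, a large chaperone that exchanges the nucleotide of BiP (log2 change 0.91, SE 0.22, adjusted p = 0.00773), Dnajb9, a J-domain partner of BiP that restrains IRE1 (0.87, SE 0.16, adjusted p = 0.000972), and Creld2, a disulfide isomerase-like protein (0.79, SE 0.22, adjusted p = 0.0213). Hspa5 itself changed by 0.52 (SE 0.16, adjusted p = 0.0301). None of the ATF4 targets passed, and their changes had a median of -0.13.

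Among the lower-numbered mice, 3 lactating against 3 nulliparous, 7 of 39 members rose, against 1.4% of all genes tested, and in 22 of 39 every lactating mouse was above every nulliparous mouse, against 14.2% of all genes. Hyou1 had 17.87, 20.2 and 26.08 TPM in nulliparous and 64.9, 62.57 and 60.53 TPM in lactating mice, a log2 change of 1.52 (SE 0.13, adjusted p = 0.0178). Dnajb9 had 13.21, 20.07 and 16.88 TPM against 45.78, 32.69 and 44.9 TPM, a log2 change of 1.25 (SE 0.19, adjusted p = 0.0336). Creld2 had 14.04, 15.21 and 20.4 TPM against 41.56, 32.84 and 40.87 TPM, a log2 change of 1.18 (SE 0.16, adjusted p = 0.0312). In each of these genes every lactating mouse was above every nulliparous mouse. Manf rose by 1.14 (SE 0.16, adjusted p = 0.0325), Syvn1, the HRD1 ubiquitin ligase, by 0.89 (SE 0.12, adjusted p = 0.03), and Sec61a1 by 0.55 (SE 0.08, adjusted p = 0.0336). Fkbp11 was the other member that rose.

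Among mice numbered 200 and above, 3 lactating against 4 nulliparous, 2 of 39 members changed, against 7.07% of all genes tested. They were Fkbp11, which rose, and Creb3l3, which fell. Hyou1 had 84.63, 72.32, 94.69 and 178.12 TPM in the nulliparous and 116.57, 130.09 and 149.03 TPM in the lactating mice, and the groups overlapped because mouse NUL_227 was above all lactating mice (log2 change 0.38, SE 0.27, adjusted p = 0.474). Creld2 overlapped in the same way, with 58.84, 66.64, 79.82 and 151.83 TPM against 96.98, 138.04 and 108.88 TPM. Dnajb9 did not overlap, with 53.78, 40.89, 38.86 and 55.38 TPM against 66.48, 80.68 and 58.75 TPM, but it did not pass the test (log2 change 0.54, SE 0.18, adjusted p = 0.0959). The lactation change was larger in the lower range by 1.15 for Hyou1 (SE 0.36, adjusted p = 0.226) and by 0.78 for Manf (SE 0.22, adjusted p = 0.194). In that test of the difference 0.111% of all genes and 0 of 39 members passed with limma-trend, while 8 members had an unadjusted p under 0.05, against 13.3% of all genes (Dnajb9, Manf, Hyou1, Fkbp11, Edem1, Sec61a1, Ern1 and Creb3l3).

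**Figure D3:**
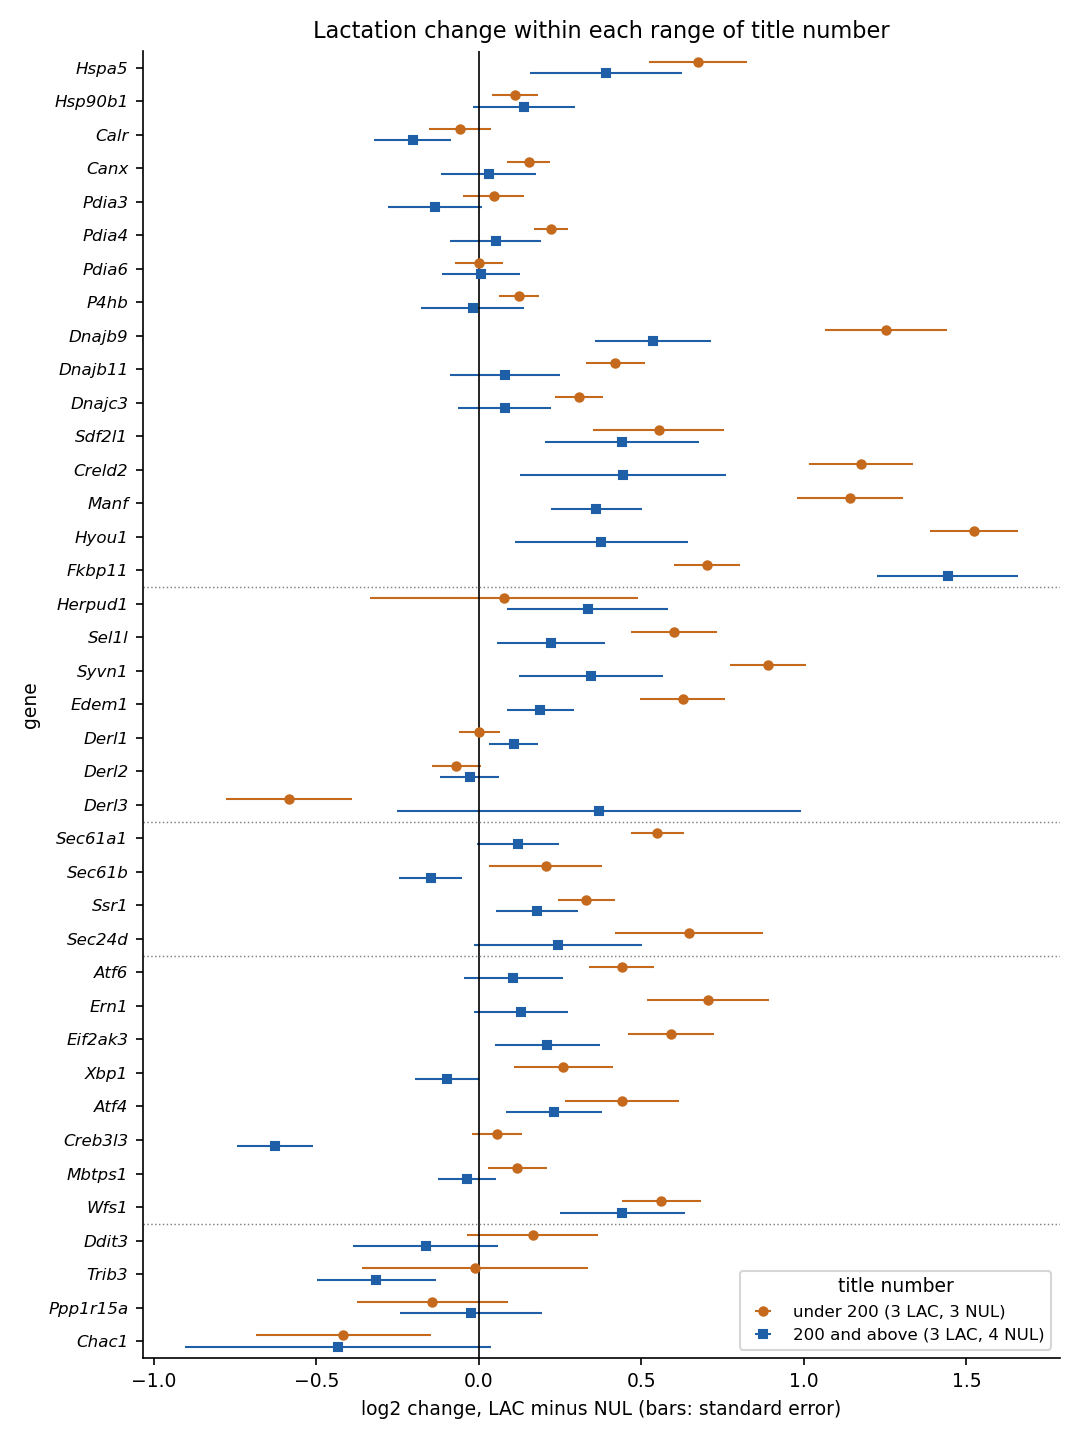
Log2 change of each member from nulliparous to lactating mice, computed separately among mice numbered under 200 (3 and 3 mice) and 200 and above (4 and 3 mice), with bars of 1 SE. Hyou1, Dnajb9, Creld2 and Manf lie above 1 in the lower range and below 0.6 in the upper range, Fkbp11 is high in both, and Creb3l3 is at 0.06 and -0.63.

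Creb3l3 fell in lactation among the upper-numbered mice. The nulliparous mice had 190.17, 236.67, 207.49 and 206.58 TPM there and the lactating mice 135.29, 116.13 and 157.31 TPM, without overlap (log2 change -0.63, SE 0.12, adjusted p = 0.0069). In the lower range it had 172.37, 183.8 and 176.62 TPM against 197.69, 190.12 and 167.31 TPM, which overlapped (log2 change 0.06, SE 0.08, adjusted p = 0.697). The difference between the ranges was 0.68 (SE 0.15, adjusted p = 0.124), so the test did not separate them. Of 7 genes listed as CREB-H targets in liver, Hamp, which encodes the iron hormone hepcidin, fell in lactation over all mice, from 7303 ± 2559 TPM (SD, n = 7) to 1618 ± 1199 TPM (SD, n = 6), with a log2 change of -2.67 (SE 0.54, adjusted p = 0.00382), and none rose. Over all mice Creb3l3 itself did not pass, and the median change of the 7 was -0.09. In the lower range 0 of the 7 passed with limma-trend, and in the upper range 1 fell. The part of Creb3l3 in the fall of Hamp was not tested.

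The comparison of involution with lactation asks what differs in the liver after weaning. Fkbp11 fell, and Mbtps1, the site-1 protease that cleaves ATF6 and CREB-H, rose. Fkbp11 had 10.84 to 25.35 TPM (median 15.3) at involution, a mean of 16.1 ± 5.20 TPM (SD, n = 6), and every involution mouse was below every lactating mouse (log2 change -0.90, SE 0.18, adjusted p = 0.00125). Its level at involution was not separable from the nulliparous level, with a log2 change of 0.22 (SE 0.17, adjusted p = 0.448). Mbtps1 had 23.7 ± 2.24 TPM (SD, n = 6) at involution and 19.2 ± 1.89 TPM (SD, n = 6) in lactation, where its highest value, 22.02 TPM, lay above the lowest at involution, 21.6 TPM (log2 change 0.29, SE 0.09, adjusted p = 0.0229). The Mbtps1 call was lost without LAC_133, ID6_209 or ID6_232 (adjusted p = 0.0133 to 0.06 over the 19 mice left out in turn), with median-ratio scaling (0.14, adjusted p = 0.154) and with quantile normalization (0.17, adjusted p = 0.0577). These 2 of 39 members stood against 22.8% of all genes tested, and 0 of 39 also reached a log2 change of 1 in size, against 1.93% of all genes. The median change of the members was 0.21, and that of all genes was 0.099, which scaling by median ratios brought to -0.005.

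Other members with small p values in that comparison were Derl2 and Derl3, parts of the channel that returns misfolded proteins to the cytosol, with log2 changes of 0.43 (SE 0.16, adjusted p = 0.0551) and 0.99 (SE 0.52, adjusted p = 0.181). Xbp1 had 0.21 (SE 0.11, adjusted p = 0.172). Its value is per gene, and the spliced form is not separated. Chac1 had 0.68 (SE 0.32, adjusted p = 0.141) and Ddit3, which encodes CHOP, 0.45 (SE 0.25, adjusted p = 0.203). Sec61a1 and Sec24d had 0.17 (SE 0.18, adjusted p = 0.551) and -0.17 (SE 0.22, adjusted p = 0.609). Before adjustment, 7 of 39 members had p under 0.05, against 35.2% of all genes tested. The count that passed was 6 in a fit of these 12 mice alone, with Calr, Pdia3, Derl2 and Xbp1 added, and 4 without NUL_226.

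Because every involution mouse is numbered 200 or above, the upper-numbered mice alone give the like-for-like comparison. There 2 of 39 members changed between lactation and involution, against 14.1% of all genes tested. Fkbp11 fell (log2 change -0.96, SE 0.20, adjusted p = 0.00623) and Creb3l3 rose, from 136 ± 20.6 TPM (SD, n = 3) to 176 ± 18.9 TPM (SD, n = 6), a log2 change of 0.37 (SE 0.11, adjusted p = 0.0387). Mbtps1 did not pass within this range (0.22, SE 0.08, adjusted p = 0.107). In 4 of 39 members, Sdf2l1, Manf, Fkbp11 and Wfs1, every involution mouse was below every lactating mouse of the range, against 4.08% of all genes tested. With all mice and the range as a term, 3 of 39 members were lower at involution (Manf, Fkbp11 and Syvn1), against 3.88% of all genes tested, and Manf and Syvn1, which had positive changes without that term, had log2 changes of -0.52 (adjusted p = 0.0343) and -0.53 (adjusted p = 0.0487) with it. The median change of the 39 members was then -0.07 rather than 0.21.

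Involution against the nulliparous state asks whether the liver after weaning differs from that of mice that were never pregnant. Edem1 and Mbtps1 rose, 2 of 39 members against 4.36% of all genes tested, and 0 of 39 reached a log2 change of 1, against 0.253% of all genes. Edem1 had 28.88 to 59.66 TPM (median 45.12) in nulliparous and 52.73 to 66.66 TPM (median 63.8) in involution mice, with overlap (log2 change 0.57, SE 0.15, adjusted p = 0.0362). Mbtps1 had 15.62 to 22.09 TPM (median 19.5) in nulliparous mice, with overlap too (log2 change 0.31, SE 0.09, adjusted p = 0.0454). Both calls were lost, leaving 0 of 39 members, without any one of NUL_1, NUL_4, NUL_13, ID6_201, ID6_209, ID6_216, ID6_230 or ID6_232, and 8 of 39 passed without NUL_227 and 4 without NUL_220. Median-ratio scaling also gave 0 of 39 and only quantile normalization, of the 2 scalings, kept a call, that of Edem1. Dnajb9 had a log2 change of 1.01 (SE 0.30, adjusted p = 0.0588) and Eif2ak3 of 0.61 (SE 0.18, adjusted p = 0.0596). Manf (0.75, SE 0.32, adjusted p = 0.158), Herpud1, a scaffold of the degradation machinery (0.63, SE 0.26, adjusted p = 0.147), Sec61a1 (0.44, SE 0.18, adjusted p = 0.138) and Ssr1 (0.26, SE 0.11, adjusted p = 0.159) did not pass. Nor did Ddit3 (0.39, SE 0.24, adjusted p = 0.321) and Trib3 (-0.28, SE 0.23, adjusted p = 0.465).

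Positive changes were found in 36 of 39 members in that comparison, with a median of 0.31 against 0.065 over all genes, and the lower-numbered mice are all on the nulliparous side of it. Among the upper-numbered mice the median was 0.06 against 0.039, and 0 of 39 members passed with limma-trend, against 0.819% of all genes, while 5 had an unadjusted p under 0.05, against 12.2% of all genes (Dnajb9, Fkbp11, Edem1, Creb3l3 and Mbtps1). Within this range Edem1 had a log2 change of 0.27 (SE 0.09, adjusted p = 0.202) and Mbtps1 of 0.18 (SE 0.08, adjusted p = 0.352).

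More members differed by title number than by stage, also where the stage fits held the range as a term (13, 3 and 0 of 39). Over all genes tested the title number gave more calls too. It gave 25.6%, against 15.7% for lactation and 16.8% for involution against lactation, each with the range as a term. Without that term involution against lactation gave 22.8%. Among the 13 nulliparous and lactating mice, with stage in the fit, 27 of 39 members were higher in the 7 mice numbered 200 and above than in the 6 numbered under 200, against 16.5% of all genes tested. A further 2 of 39 were lower, against 9.11% of all genes. In 15 of 39 members every upper-numbered mouse was above every lower-numbered mouse, against 4.87% of all genes tested. The median log2 change of the members was 0.53, against 0.047 over all genes. That this split separates the mice was known from earlier results of the same data, so these counts describe the members and are no independent evidence for the split.

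Of the chaperones and folding enzymes, 15 of 16 were higher. The exception was Fkbp11 (log2 change -0.28, SE 0.13, adjusted p = 0.129), which was lower at 200 and above among nulliparous mice alone (-0.63, SE 0.12, adjusted p = 0.0169). Creld2 had 14.04 to 41.56 TPM in the lower-numbered mice and 58.84 to 151.83 TPM in the upper-numbered ones, a ratio of means of 3.64 (log2 change 1.94, SE 0.21, adjusted p = 4.32e-05). Sdf2l1, a partner of BiP, had 25.3, 15.36 and 25.43 TPM in the lower-numbered nulliparous and 35.94, 30.74 and 29.62 TPM in the lower-numbered lactating mice. It had 53.69, 86.01, 63.86 and 107.4 TPM and then 99.24, 112.44 and 95.81 TPM in the upper-numbered mice of the same stages. The 2 ranges did not overlap (log2 change 1.71, SE 0.16, adjusted p = 8.52e-06).

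Hspa5 had 227.61, 318.21 and 333.29 TPM in the lower-numbered nulliparous and 486.66, 465.56 and 434.78 TPM in the lower-numbered lactating mice. In the upper range it had 627.7, 614.38, 724.45 and 1159.08 TPM in nulliparous and 877.17, 1195.69 and 924.69 TPM in lactating mice. All 7 upper values exceeded all 6 lower ones (ratio of means 2.32, log2 change 1.25, SE 0.15, adjusted p = 9.15e-05). Hyou1 (1.67, SE 0.23, adjusted p = 0.000271), Manf (1.26, SE 0.15, adjusted p = 8e-05) and Dnajb11, another J-domain partner of BiP (1.04, SE 0.11, adjusted p = 4.23e-05), also did not overlap between the ranges. The smallest changes among the 15 were those of the abundant isomerases Pdia6 (0.35) and P4hb (0.33).

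Among degradation factors, 6 of 7 were higher. Syvn1 had 13.91, 14.57 and 17.72 TPM in the lower-numbered nulliparous and 32.81, 27.26 and 27.92 TPM in the lower-numbered lactating mice. It had 47.78, 44.47, 48.09 and 84.06 TPM and 65.99, 69.37 and 72.12 TPM in the upper-numbered mice of the same stages, all above the former (log2 change 1.504, SE 0.15, adjusted p = 1.67e-05). Derl3, the least abundant derlin, had 0.57 to 1.97 TPM in the lower and 1.19 to 8.06 TPM in the upper range, which overlapped (1.33, SE 0.29, adjusted p = 0.00521). Sel1l (0.83), Derl2 (0.60), Edem1 (0.48) and Derl1 (0.18) had smaller changes. Herpud1 did not pass (0.62, SE 0.22, adjusted p = 0.0549), with a single lower-numbered nulliparous mouse, NUL_4, at 180.99 TPM against 56.34 and 70.49 TPM in its 2 counterparts. Without NUL_4 it passed by limma-trend (0.87, adjusted p = 0.0004). It also passed with the filter at 1 TPM (adjusted p = 0.04) and with quantile normalization (adjusted p = 0.0425).

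Of the translocation and export genes, Sec61a1 (0.65, SE 0.10, adjusted p = 0.000562) and Ssr1 (0.32, SE 0.09, adjusted p = 0.0147) were higher, and Sec61b and Sec24d did not pass. Of the sensors and transcription factors, 3 of 8 were higher: Wfs1, an ER membrane protein (0.69, SE 0.13, adjusted p = 0.00258), Eif2ak3 (0.60, SE 0.11, adjusted p = 0.00175) and Mbtps1 (0.23, SE 0.06, adjusted p = 0.017). Xbp1 (0.20, SE 0.11, adjusted p = 0.187) and Atf4 (0.21, SE 0.12, adjusted p = 0.224) did not pass.

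The ATF4 targets did not move as a group. Ddit3 was higher in the upper range, with 4.57 to 8.3 TPM in the lower-numbered and 8.81 to 18.11 TPM in the upper-numbered mice (0.79, SE 0.17, adjusted p = 0.00516). Trib3, a pseudokinase, was lower, with 2.68 to 8.4 TPM against 1.79 to 4.24 TPM (-0.67, SE 0.20, adjusted p = 0.0281). Ppp1r15a, the phosphatase subunit that restores translation, was lower as well (-0.41, SE 0.14, adjusted p = 0.0457). The calls of these lower genes rest on single mice: leaving out NUL_4, LAC_36, LAC_200 or LAC_213 left 0 of 39 members lower, and leaving out any other of the 13 left 1 or 2. Chac1 did not pass (0.33, SE 0.31, adjusted p = 0.47).

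**Figure D4:**
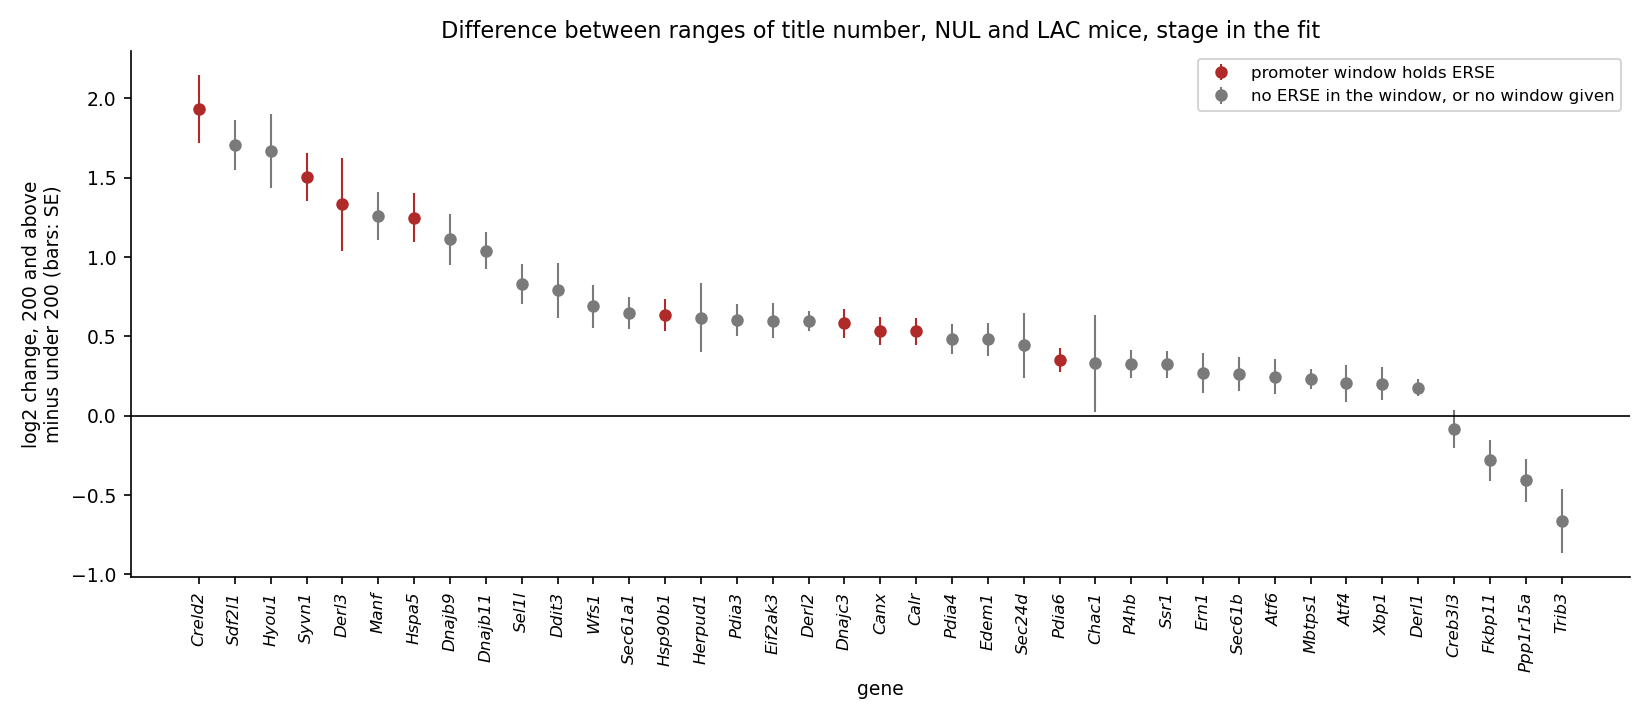
Log2 change of each member between the 7 upper-numbered and the 6 lower-numbered nulliparous and lactating mice, with stage in the fit and bars of 1 SE. Members whose promoter holds the ER stress response element are marked in red. All 9 of them are above 0, as are 35 of all 39 members, and Creld2, Sdf2l1 and Hyou1 have the larger changes.

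The members can also be ordered by stage and title number together. Of the 4 sets of nulliparous and lactating mice, the lower-numbered nulliparous mice had the lowest mean in 30 of 39 members. The upper-numbered lactating mice had the highest mean in 25, the upper-numbered nulliparous mice in 11. The shares over all genes were not computed for these counts of means, so they describe the members only. All 4 upper-numbered nulliparous mice were above all 3 lower-numbered ones in 29 members, against 22.5% of all genes tested, and all 3 upper-numbered lactating mice were above their lower-numbered counterparts in 26, against 16.1%. In 9 members every lower-numbered lactating mouse lay between the lower-numbered and the upper-numbered nulliparous mice, against 1.36% of all genes: Hspa5, Canx, P4hb, Dnajb11, Sdf2l1, Creld2, Manf, Hyou1 and Syvn1. Neighbours in these orders were not tested against each other beyond the comparisons given above.

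The promoters of these genes are shown because ATF6 and spliced XBP1 act through short elements near the start site. RefSeq sequence of GRCm38.p6 from 250 bases before to 50 bases after the start was available here for 34 of the 39 members and searched on both strands. The ER stress response element (ERSE), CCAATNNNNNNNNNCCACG, was found in 9 of these 34 (26.5%) and in 37 of 27025 genes with such a promoter (0.137%). The 37 include the 9 members, and the 27025 include genes that were not tested here. The members were listed for their part in this pathway, so these shares describe the list and are no evidence about the mice. The sites follow with 5 bases on each side, written 5′ to 3′ along the gene, the element in capitals. A site that starts with CGTGG holds the element on the opposite strand.
Hspa5: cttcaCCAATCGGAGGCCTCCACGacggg
Hsp90b1, distal: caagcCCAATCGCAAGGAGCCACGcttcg
Hsp90b1, proximal: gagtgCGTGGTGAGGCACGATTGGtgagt
Calr: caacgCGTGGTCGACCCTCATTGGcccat
Canx: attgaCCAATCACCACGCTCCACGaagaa
Pdia6: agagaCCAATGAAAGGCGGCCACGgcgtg
Dnajc3: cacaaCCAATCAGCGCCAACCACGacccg
Creld2: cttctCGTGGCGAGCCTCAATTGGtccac
Syvn1: cgcaaCCAATCGGCGGTAGCCACGggaac
Derl3: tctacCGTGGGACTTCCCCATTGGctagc

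All of these elements lie upstream of the RefSeq start. The element of Syvn1 begins 44 bases before it (chr19:6046532-6046550, plus strand gene), that of Hspa5 65 bases (chr2:34772025-34772043, plus) and that of Pdia6 98 bases (chr12:17266491-17266509, plus). In Dnajc3 it begins 105 bases before the start (chr14:118937827-118937845, plus), in Creld2 126 (chr15:88819520-88819538, plus), in Canx 145 (chr11:50325800-50325818, minus), in Derl3 156 (chr10:75893242-75893260, plus) and in Calr 162 (chr8:84847075-84847093, minus). Hsp90b1, on the minus strand, holds 2, at 212 bases (chr10:86705638-86705656) and 107 bases (chr10:86705533-86705551). The element of Creld2 is the same stretch of DNA as that of Alg12, a mannosyltransferase of N-glycosylation transcribed the other way, and that of Calr is shared with 1700122E12Rik.

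All 9 members with an ERSE were higher in the upper-numbered mice, with log2 changes from 0.35 for Pdia6 to 1.94 for Creld2. Over all 39 members 27 were higher. Sdf2l1, without an ERSE in its promoter, and Hyou1, whose promoter was not available, changed more than all of the 9 but Creld2. Of the other genes with an ERSE, 12 were tested, and 6 of these (50%, against 16.5% of all genes) were higher and 0 lower by limma-trend: Acnat2, Adcy3, Alg12, Ero1lb, Spats2l and Xlr3a. Alg12 (0.66, SE 0.15, adjusted p = 0.00548) and Ero1lb, an oxidase that drives disulfide formation (0.90, SE 0.13, adjusted p = 0.0003), belong to the same pathway. The part of the ERSE in these differences was not tested. The promoters of Creld2 and Syvn1, the members with the largest changes on this list, are given from 250 bases before the start to the base before it, with the element in capitals: chr15:88819396-88819645, 66% G and C, and chr19:6046326-6046575, 56.4% G and C, both on the plus strand of GRCm38.p6.
Creld2: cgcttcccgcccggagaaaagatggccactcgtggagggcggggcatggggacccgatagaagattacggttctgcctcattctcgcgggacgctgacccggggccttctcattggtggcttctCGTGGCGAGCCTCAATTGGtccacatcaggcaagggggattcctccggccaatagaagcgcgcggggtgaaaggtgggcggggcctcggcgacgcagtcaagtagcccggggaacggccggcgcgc
Syvn1: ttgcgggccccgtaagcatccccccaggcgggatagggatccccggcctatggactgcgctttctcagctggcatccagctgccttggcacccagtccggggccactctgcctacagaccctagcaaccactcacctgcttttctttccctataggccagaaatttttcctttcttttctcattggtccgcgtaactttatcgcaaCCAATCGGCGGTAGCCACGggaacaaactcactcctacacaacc

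Other elements were rarer among the members. ERSE-II, ATTGGNCCACG, which can overlap an ERSE, was in 2 members, Dnajb11 and Herpud1, and in 12 genes in all (0.0444%). Of these, 6 non-members were tested, and 0 were higher and 1 lower in the upper-numbered mice by limma-trend. The unfolded protein response element, TGACGTGG, was in Sec24d and in 193 genes in all (0.714%), of which 111 non-members were tested, and 23 (20.7%) were higher and 6 lower. The element bound by ATF4 with its partners, TGATGNAAT, was in 0 of 34 members and in 293 genes (1.08%), of which 75 were tested, and 8 (10.7%) were higher and 10 lower. A match to these letters is a description of the sequence and not a measured site of binding.

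The rest of the secretory pathway differed by title number in the same direction. Over all genes tested, 16.5% were higher in the upper-numbered mice and 9.11% lower. Of 29 other folding enzymes, 16 were higher in the upper-numbered mice and 0 lower, with Ero1lb ahead. Of 28 genes of N-glycosylation and glycan trimming, 18 were higher and 2 lower, among the former Gfpt1, the entry enzyme of hexosamine synthesis (0.91), and Uggt1, the folding sensor that reglucosylates glycoproteins (0.67). Of 26 other degradation factors 11 were higher and 0 lower, with Edem2 at 0.66. Of 21 other translocation genes 15 were higher and 1 lower, with the signal recognition receptor subunit Srprb at 0.85. Of 26 other vesicle export genes 16 were higher and 1 lower, with the cargo receptor Tmed3 at 0.83. Of 26 other sensors and regulators 9 were higher and 0 lower, with the transcription factor Creb3l2 at 0.74. Under median-ratio scaling these 6 lists held, in the same order, 13, 12, 8, 11, 12 and 6 higher and 1, 2, 3, 1, 1 and 0 lower genes. Over all 16230 genes tested that scaling gave 1932 higher and 1936 lower.

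The difference was not limited to the ER. The counts below stand against 16.5% of all genes tested higher and 9.11% lower. Of 20 cytosolic heat shock genes 14 were higher (8 under median-ratio scaling) and 0 lower, with Hsph1 at 0.997 and Hspa8 at 0.74. Of 12 mitochondrial chaperones and proteases 2 were higher (16.7%, near the share of all genes) and 4 lower (33.3%). Median-ratio scaling gave 0 and 6. Among 34 tested genes of the ATF4 and amino acid response, of 37 listed, 9 were higher (26.5%) and 6 lower (17.6%). The lower genes included Gdf15, a stress hormone, with 5.85 ± 2.16 TPM (SD, n = 7) in the upper-numbered and 34.7 ± 16.0 TPM (SD, n = 6) in the lower-numbered mice (-2.29, SE 0.27, adjusted p = 6.79e-05). Vldlr, a lipoprotein receptor (-1.75, SE 0.20, adjusted p = 5.24e-05), and Cth, an enzyme of cysteine synthesis (-0.92, SE 0.13, adjusted p = 0.000235), were lower too. Of the 7 listed CREB-H targets 3 were higher: Apoa4 (1.74, SE 0.20, adjusted p = 6.51e-05), Hamp (1.59, SE 0.47, adjusted p = 0.0261) and Apcs (0.63, SE 0.14, adjusted p = 0.00538).

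**Figure D5:**
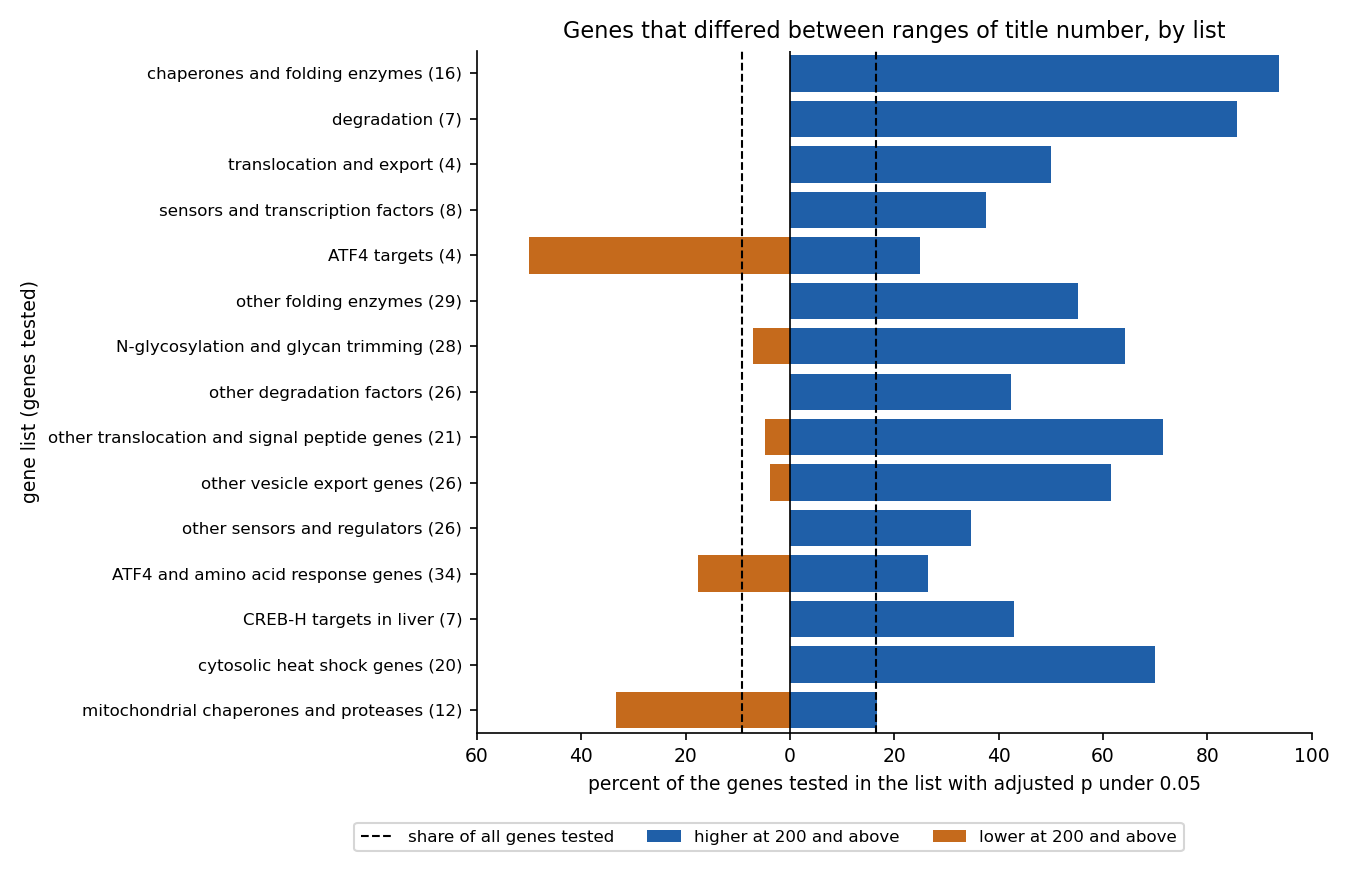
Share of each gene list that was higher (right) or lower (left) in the 7 upper-numbered than in the 6 lower-numbered nulliparous and lactating mice, as a percent of the genes tested in the list. Dashed lines mark the shares over all genes tested, 16.5% higher and 9.11% lower, and the chaperone and degradation lists reach 15 of 16 and 6 of 7 genes higher.

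Without a term for the range, the wider lists held few calls in lactation. In lactation against nulliparous mice, where 2.72% of all genes tested were higher and 6.49% lower, 3 of 34 ATF4 and amino acid response genes rose (8.82%): Eif4ebp3, a repressor of translation (7.87 ± 2.23 TPM, SD, n = 7, to 48.7 ± 21.4 TPM, SD, n = 6; log2 change 2.43, SE 0.22, adjusted p = 4.03e-06), Ddit4, an inhibitor of mTORC1 (1.45, SE 0.23, adjusted p = 0.000548), and Gpt2 (0.83). Cbs fell. These counts of 3 and 1 were also those under both scalings, and the ranges taken alone gave 2 and 0 in the lower and 4 and 0 in the upper. The other lists held at most 2 genes that passed in either direction, among them Rcn1, a calcium-binding protein of the ER lumen, which fell (-0.45, SE 0.09, adjusted p = 0.00305), and Hspa4l, a cytosolic chaperone, which rose (0.74, SE 0.17, adjusted p = 0.00906). Median-ratio scaling raised these counts, to 4 mitochondrial chaperones and proteases higher and to 3 higher in each of the translocation, vesicle export, heat shock and other degradation lists, with 0 lower in these 5 lists by limma-trend. Over all genes that scaling moved the calls the same way, from 441 higher and 1053 lower to 743 and 735. Without that scaling the translocation list had held 0 higher and 1 lower. With the range as a term, 7 of 20 heat shock genes were higher and 1 lower, against 5.5% and 10.2% of all genes. Of 29 other folding enzymes 4 were higher and 4 lower, of 28 N-glycosylation genes 5 and 1, and of 21 translocation genes 4 and 1. Of 26 other degradation factors 4 were higher and 1 lower, and of 26 vesicle export genes 1 and 0. In the lower range alone 6 N-glycosylation, 4 translocation, 3 degradation and 3 folding genes were higher, against 1.4% of all genes. In the upper range these lists held 0 higher by limma-trend. The folding list held 2 lower genes in each range.

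At involution against lactation, 18.1% of all genes tested rose and 4.73% fell. Of 29 other folding enzymes 9 rose (31%) and 0 fell, with Rcn1 (0.69, SE 0.09, adjusted p = 3.83e-05), Fkbp2 (0.52), Erp29 (0.48) and Cnpy2 (0.45) ahead, but median-ratio scaling gave 3 that rose and 3 that fell, and quantile normalization 4 and 3. Of 26 other sensors and regulators 6 rose (23.1%; 2 under median-ratio scaling, with 1 that fell), with Bcl2l11, an effector of apoptosis, at 0.60. Of 34 ATF4 and amino acid response genes 6 rose and 6 fell (17.6% each; 1 and 7 under median-ratio scaling), so the share that rose was near that of all genes. Those that fell included Eif4ebp3 (-2.74, SE 0.22, adjusted p = 4.19e-07) and Ddit4 (-1.24, SE 0.24, adjusted p = 0.000987). Hamp rose to 8623 ± 1158 TPM (SD, n = 6), a log2 change of 2.997 (SE 0.56, adjusted p = 0.000745). The shares that rose were near or below the background in 4 further lists: 2 N-glycosylation genes rose (7.14%) and 1 fell, 3 degradation factors rose (11.5%) and 2 fell, 4 translocation genes rose (19%) and 1 fell, and 2 vesicle export genes rose (7.69%) and 1 fell. Median-ratio scaling left 0, 1, 0 and 0 of these rising and 2, 4, 1 and 2 falling.

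Among the upper-numbered mice alone, where 10.6% of all genes rose from lactation to involution and 3.54% fell, the lists held fewer calls. Of the other folding enzymes 4 rose, Rcn1 (0.61), Cnpy2 (0.40), Fkbp2 (0.39) and Erp44 (0.26), and 0 fell by limma-trend. Of the ATF4 and amino acid response genes 1 rose, Cbs (0.55), and 3 fell, Eif4ebp3 (-2.35), Ddit4 (-1.18) and Gpt2 (-0.67). Of the other sensors and regulators 2 rose, of N-glycosylation genes 1 rose and 1 fell, of degradation factors 1 rose, of vesicle export genes 2 fell, and of translocation genes 0 passed. At involution against nulliparous mice 3 genes of these lists passed: the folding enzyme Erp44 (0.32, SE 0.08, adjusted p = 0.0387), the degradation lectin Os9 (0.32, SE 0.08, adjusted p = 0.031) and the PERK regulator Nck1 (0.44, SE 0.11, adjusted p = 0.0362). Under median-ratio scaling 0 of the 3 passed, and under quantile normalization only Os9 of the 3 did (0.32, SE 0.08, adjusted p = 0.0403). Among the upper-numbered mice 0 genes of these lists passed with limma-trend.

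Marker genes of liver cell types moved with stage and with title number. In bulk liver RNA, fewer cells of a type and less RNA per cell cannot be told apart. The 12 hepatocyte markers summed to 66270 to 101200 TPM in nulliparous, 104700 to 155400 TPM in lactating and 87070 to 117200 TPM in involution mice. Of the 12, 5 were higher and 2 lower in the upper range, against 16.5% and 9.11% of all genes. Most of the hepatocyte sum is albumin (Alb), which rose in lactation (log2 change 0.86, SE 0.15, adjusted p = 0.00137), a call lost under quantile normalization (0.20, SE 0.15, adjusted p = 0.445). The list as a whole did not follow it: 1 of 12 rose, 1 fell (Cyp2e1, -1.18, SE 0.27, adjusted p = 0.00877), and the median change was -0.08. The 8 Kupffer cell markers summed to 166.7 to 317.3 TPM in nulliparous, 109.7 to 228.2 TPM in lactating and 372.2 to 518.2 TPM in involution mice. Of these markers 7 of 8 fell in lactation, 8 of 8 rose from lactation to involution, and 7 of 8 were higher in the upper range (5, 8 and 6 under median-ratio scaling). Over all genes the shares were 6.49%, 18.1% and 16.5%, before that scaling. The fall in lactation passed for 7 of 8 within the upper range and for 0 of 8 within the lower by limma-trend, where all 8 changes were negative. Over all genes 4.47% fell in the upper and 1.89% in the lower range. Of 9 stellate cell markers 3 fell in lactation, and of 7 sinusoidal endothelial markers 2 fell, against 6.49% of all genes. From lactation to involution 3 stellate and 4 sinusoidal markers rose (1 and 3 under median-ratio scaling), against 18.1% of all genes before that scaling. Within the upper range 2 and 4 rose, against 10.6%. Erythroid markers summed to 196.5 to 847.2 TPM at involution and 1144 to 3337 TPM in the other mice. The part of these markers in the results above was not tested.

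Cell types with a dense ER were also examined. Plasma and B cell markers summed to 151.6 to 253.3 TPM, most of it Sdc1, which hepatocytes express as well. By title number 0 of 12 tested differed with limma-trend, 1 was lower under median-ratio scaling, and 1 was higher under quantile normalization. Jchain stood at 1.02 to 3.74 TPM, Mzb1 at 0.11 to 0.76 TPM, Igkc at 14.75 to 39.19 TPM and Ighm at 5.24 to 21.65 TPM. In lactation 0 of 12 rose and 2 fell, against 2.72% and 6.49% of all genes. From lactation to involution 5 of 12 rose and 0 fell with limma-trend, against 18.1% and 4.73% of all genes (4 and 1 under median-ratio scaling). Among the upper-numbered mice 5 of 12 rose as well, against 10.6% of all genes. At involution 3 of 12 were higher than in nulliparous mice (Jchain, Igkc and Ighm), against 3.44% of all genes. Either scaling left 2 of them, without Jchain, and among the upper-numbered mice 0 of 12 passed with limma-trend (0.34, 0.58 and 0.74 for the 3 genes, adjusted p = 0.389, 0.179 and 0.102). Of 14 pancreatic acinar markers, all but Cela1 and Amy2a5 were highest in LAC_133. Ctrb1 stood at 16.0 TPM in LAC_133, at 5.3 TPM in LAC_36, and at or below 0.96 TPM in the other 17 mice. Cela1, the most abundant, had 20.86 to 41.76 TPM in nulliparous and 4.85 to 12.82 TPM in lactating mice. Amy2a5 was highest in ID6_209 (8.35 TPM). Fkbp11 was 30.85 TPM in LAC_133, 30.19 TPM in LAC_36 and 25.47 to 32.87 TPM in the other 4 lactating mice. The part of acinar cells was not tested.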

How the data were processed

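Paired-end reads of liver mRNA came from 7 nulliparous, 6 lactating and 6 involution mice. The authors quantified genes with RSEM 1.3.1 on GRCm38, annotation release 89, and deposited TPM with 2 decimals (aligner not given in the sources used here). RSEM divides reads shared by near-identical genes, so values of close paralogs are uncertain. TPM keep no record of depth, which is unknown here, so no counting interval is given. The authors' DESeq2 test needs counts and was not repeated.

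From TPM, log2(TPM + 1) was computed, which understates changes of low genes. Genes averaging 0.1 TPM or more, 16230 in number, entered limma-trend (limma 3.58.1, R 4.3.3) with 1 mean per stage over all 19 mice, Benjamini-Hochberg adjustment over all genes, two-sided. A gene passed at an adjusted p under 0.05. A log2 change of at least 1 is given as a second rule, the study's. Further fits used the title number range (under 200 or not) as a term, 1 range alone, or the 13 nulliparous and lactating mice with stage, range and, for the difference between ranges, their interaction. The labels give 1 sample per mouse. Statistics were tested on simulated data. Motifs were searched with Python 3.11.15, and older symbols were matched through RefSeq synonyms.

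The members and lists were chosen with earlier results of these data known. Members were named by this rule: full statistics for those that passed with groups that did not overlap, otherwise for the 2 with the smallest adjusted p of each branch. Other genes were named if past both rules or among the 4 largest changes that passed, and members in the title number comparisons and single genes beyond this rule were chosen after their values were seen. Alternatives were a pseudocount of 0.1 or of 0.5, a low-value filter of 1 TPM, no filter, median-ratio and quantile scaling, robust moderation, only the groups compared, the range as a term or alone, and each mouse left out. The fit of the lower range alone, the comparison by title number with its alternatives, and the scalings and ranges of the gene lists were added after the data had been seen.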

Additional observations from a re-analysis of the deposited data

Results flagged for a closer look

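Among 117 sets of values, each a member within 1 stage, 11 held a mouse far from the others by Dixon's test at the 95% level, which chance passes in about 1 of 20 sets. In nulliparous mice, NUL_227 was high for Derl1 (65.91 TPM, next 55.96) and Ssr1 (18.16 TPM, next 12.93), NUL_4 for Trib3 (8.4 TPM, next 4.24) and NUL_226 for Chac1 (6.63 TPM, next 1.85). In lactating mice, LAC_102 was low for Fkbp11 (25.47 TPM, next 30.19) and LAC_213 high for Ddit3 (18.11 TPM, next 10.44). At involution, ID6_218 was low for Hyou1 (66.81 TPM, next 105.97) and ID6_232 low for Derl2 (91.37 TPM, next 105.96) and high for Derl3 (21.49 TPM, next 7.24), while ID6_216 was high for Xbp1 (133.33 TPM, next 119.24) and Chac1 (5.16 TPM, next 2.3). Fkbp11 at its low lactating value was still above every nulliparous mouse.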

How the results depend on the processing

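No paired analysis was possible because the groups share no replicate numbers. The depth is unknown, so its part in these results cannot be given. Against 1, 2 and 2 members that passed in lactation against nulliparous, involution against lactation and involution against nulliparous mice, median-ratio scaling gave 4, 1 and 0, quantile scaling 2, 1 and 1, only the groups compared 1, 6 and 0, a filter at 1 TPM 4 in the last, and no filter 0 in the last. With the range as a term the counts were 13, 3 and 0. The upper range alone gave 2 in the first and 0 in the last, and the lower range alone 7 in the first, 4 of them past a log2 change of 1 against 1 in all mice. With that fold threshold, median-ratio and quantile scaling each gave 1 in involution against lactation, and the filter at 1 TPM gave 1 in involution against nulliparous mice, where 0 had passed. Against 27 members higher and 2 lower by title number, only nulliparous mice gave 23 and 1 (the 1 being Fkbp11, with Trib3 and Ppp1r15a lost at adjusted p = 0.296 and 0.13), only lactating mice 17 and 0, and no filter gave 0 lower. Manf and Syvn1 reversed from lactation to involution with the range as a term, to -0.52 and -0.53. The causes were not tested.

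Leaving out each mouse gave 1 to 4 members in lactation against nulliparous mice (4 without NUL_227, 2 without LAC_36), 1 to 4 in involution against lactation (4 without NUL_226, 1 without LAC_133, ID6_209 or ID6_232, where Mbtps1 was lost) and 0 to 8 in involution against nulliparous mice (8 without NUL_227, 4 without NUL_220, 1 without NUL_221, LAC_36, LAC_200, LAC_213 or ID6_218, and 0 without NUL_1, NUL_4, NUL_13, ID6_201, ID6_209, ID6_216, ID6_230 or ID6_232). With the fold threshold the ranges were 1 to 1, 0 to 1 (1 without ID6_216) and 0 to 2 (2 without NUL_227, 1 without NUL_220). By title number 26 to 28 were higher and 0 to 2 lower, and the difference between ranges gave 0 to 1, the 1 being Fkbp11 without NUL_227 (-0.84, adjusted p = 0.0382). Over all genes, higher and lower calls split 441 and 1053 in lactation against nulliparous mice, 743 and 735 with median-ratio and 680 and 815 with quantile scaling. For involution against lactation they split 2936 and 767, then 1303 and 1352, then 1611 and 1234, for involution against nulliparous mice 559 and 148, then 165 and 214, then 214 and 210, and by title number 2670 and 1479, then 1932 and 1936, then 2234 and 1804.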
